A study of Mus musculus with 6 samples.

Results

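The 10 genes described here encode inflammatory cytokines (Il6, Il1b, Il1a and Tnf), subunits of the transcription factor NF-kB (Nfkb1, Nfkb2, Rela and Relb) and its inhibitors (Nfkbia and Tnfaip3). They were chosen by name out of 21853 protein-coding genes of the GENCODE mouse annotation. Open chromatin was assayed with ATAC-seq: a transposase cuts accessible DNA, and the fragments are sequenced. Every called peak was taken that lay within 1 kb of a protein-coding transcription start site (TSS) of a member, in its gene body, or in the 20 kb upstream. Peaks of different libraries that shared at least 1 bp were merged, which gave 35 member regions out of 63840 regions genome-wide.

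The libraries came from skeletal stem and progenitor cells (SSPCs) of C57BL/6 mice, labelled as young (3 libraries) or middle-aged (3 libraries), and none had received a treatment. SSPCs are the marrow cells that can form bone, cartilage and fat. They were taken from tibial and femoral marrow, expanded in DMEM with serum and used at passage 1. The labels do not say which mice each library came from, so p-values measure the spread between these libraries, which may in part be technical. Each library is a bulk culture, so a weaker peak from fewer cells with an open site and a weaker peak from less accessible chromatin in every cell cannot be told apart.

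NF-kB is a family of dimeric transcription factors that rest in the cytoplasm, held there by inhibitor proteins of the IkB family. Signals such as TNF or IL-1 activate the IkB kinase, IkB is degraded, and the released dimers bind kB motifs in promoters and enhancers. Among the genes they switch on are the cytokines themselves and the inhibitors that end the response. In marrow stroma, inflammatory cytokines are known to act on bone-forming and bone-resorbing cells.

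The lists held 27628 to 43941 peaks in the young and 46364 to 48344 peaks in the middle-aged libraries, and young 3 was the shortest. The caller's genome-wide background was 1.65 to 3.75 extended reads per base in the young and 2.40 to 2.79 in the middle-aged libraries, lowest in young 3 and highest in young 1. Of 12 SSPC marker genes, 3 to 8 had a TSS peak in the young and 7 to 9 in the middle-aged libraries. Kitl, Ebf3 and Runx2 had a TSS peak in all 6 libraries, and Cxcl12, Pdgfra, Pdgfrb, Col1a1, Col1a2 and Eng in some. Lepr, Prrx1 and Thy1 had none in any library. The paper defines its SSPC-like cluster by Cxcl12, Lepr and Kitl, and lists Thy1 among markers of more committed osteoprogenitors. Of 12 macrophage and myeloid markers, 9 to 12 had a TSS peak in the young and 9 to 11 in the middle-aged libraries. Start sites of macrophage genes were therefore open in every library, beside a share of those of SSPC genes. The summed percentile rank of the SSPC markers was 116 to 285 in the young and 350 to 439 in the middle-aged libraries, and that of the macrophage markers 470 to 564 and 581 to 642. Of 10 endothelial markers, 2 to 4 and 4 to 6 had a TSS peak, Emcn, Cldn5, Sox17 and Tie1 had none, and the summed rank was 117 to 147 and 133 to 198. Of all 21853 genes, 10824 to 12417 had a TSS peak in the young and 12551 to 12675 in the middle-aged libraries. Percentile ranks also rose by a median of 6.74 points over all regions called in every library. Ranked among those regions only, the median difference (middle-aged minus young) was 1.62 for 3 SSPC markers and −2.14 for 9 macrophage markers. Both lists spread widely around these medians. The SSPC values were −7.88 (Kitl), 1.62 (Runx2) and 30.4 (Ebf3). The macrophage values ran from −13.0 (Ptprc) to 17.2 (Spi1). Since macrophages express many of the member genes, these values stand beside every result below, and their part in the results was not tested.

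Sequences are shown for the start sites on which the results turn. They are the 250 bases before the TSS in the RefSeq table for GRCm38.p6 (the same coordinates as mm10), read 5′ to 3′ on the gene's own strand. Il6 (chr5:30012864-30013113, plus strand) and Nfkbia (chr12:55492648-55492897, minus strand) are shown because both hold a match to the kB motif, given in capitals. Tnf (chr17:35202008-35202257, minus strand) is shown because its start site was called in only some libraries, and Il1b (chr2:129371140-129371389, minus strand) because its start site was called in no library. Neither of these held a match.

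Il6: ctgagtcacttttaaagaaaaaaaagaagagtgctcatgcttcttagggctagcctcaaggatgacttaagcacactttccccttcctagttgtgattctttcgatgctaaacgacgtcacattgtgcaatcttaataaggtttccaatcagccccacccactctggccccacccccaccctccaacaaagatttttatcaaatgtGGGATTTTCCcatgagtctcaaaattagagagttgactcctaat

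Nfkbia: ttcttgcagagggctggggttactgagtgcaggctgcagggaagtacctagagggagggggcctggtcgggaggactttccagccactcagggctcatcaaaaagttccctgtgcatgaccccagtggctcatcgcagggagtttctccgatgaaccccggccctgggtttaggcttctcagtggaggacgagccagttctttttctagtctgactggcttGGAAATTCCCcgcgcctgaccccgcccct

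Tnf: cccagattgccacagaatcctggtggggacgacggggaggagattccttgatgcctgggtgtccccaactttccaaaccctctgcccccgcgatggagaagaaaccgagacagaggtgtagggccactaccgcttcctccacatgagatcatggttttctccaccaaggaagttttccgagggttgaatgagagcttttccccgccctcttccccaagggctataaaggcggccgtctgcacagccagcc

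Il1b: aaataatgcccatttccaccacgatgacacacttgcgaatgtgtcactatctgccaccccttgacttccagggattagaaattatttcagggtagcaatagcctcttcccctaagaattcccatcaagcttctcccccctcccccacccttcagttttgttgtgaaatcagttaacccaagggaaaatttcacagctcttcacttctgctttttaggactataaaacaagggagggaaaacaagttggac

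The kB motif searched was the NF-kB consensus of 10 letters, on both strands, with overlapping matches counted apart. For Tnfaip3 and Nfkb2, whose annotated starts are spread over several exons, only the matches with 10 bases on each side are shown, in the same lettering. The pair in Tnfaip3 lie at −125 and −12 from the RefSeq start at chr10:19015410. Those in Nfkb2 lie at −39 (with an overlapping match at −38) and −11 from the start at chr19:46304737, and at +11 from the start at chr19:46305695.

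Tnfaip3 −125: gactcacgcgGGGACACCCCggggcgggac

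Tnfaip3 −12: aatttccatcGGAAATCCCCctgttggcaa

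Nfkb2 −39: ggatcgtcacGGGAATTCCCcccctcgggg

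Nfkb2 −11: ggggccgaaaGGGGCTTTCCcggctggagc

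Nfkb2 +11: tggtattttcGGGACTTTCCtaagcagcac

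Of the 10 members, 8 matched the RefSeq promoter table, and Nfkb1 and Relb were not among them. The motif was found in the promoter window (250 bases before to 50 after the start) of Il6, Nfkbia, Tnfaip3 and Nfkb2, and not in those of Il1a, Il1b, Tnf and Rela. Over all 16515 promoters of the table, 4.75% held it. Peaks covered the shown sites of Nfkbia, Tnfaip3 and Nfkb2 in all 6 libraries, whereas the Il6 site at −44 to −35 (chr5:30013070-30013079) was covered in 0 libraries. Nfkb2 has a further match at −236 from the start at chr19:46305695, which was also covered in 0 libraries. Around the summits, in windows of 300 bp, 10 of the 35 member regions (28.6%) held the motif, against 2868 of all 63840 regions (4.49%). Among regions called in every library, the counts were 6 of 17 member regions (35.3%) and 1103 of 22403 regions (4.92%). A motif match is a description of the letters and does not show that NF-kB was bound.

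The question the design addresses is whether chromatin at these genes differs between young and middle-aged SSPCs. In every library, 7 or 8 of the 10 genes had a TSS peak. The number was 8, 7 and 7 in young libraries 1 to 3 and 8, 8 and 8 in middle-aged libraries 1 to 3. The groups overlapped (7.33 ± 0.577 and 8 ± 0, mean ± SD, n = 3 each; exact permutation test, two-sided p = 0.4, where 0.1 is the smallest p that 3 against 3 libraries allow). Il6, all 4 subunit genes and both inhibitors were called at a TSS in all 6 libraries, that is 7 of 10 members against 48.4% of all genes. Il1b and Il1a had a TSS peak in no library, 2 of 10 members against 38.5% of all genes. Tnf was the only member whose number of libraries differed by at least 2, with 1 young and 3 middle-aged libraries. Of all genes, 2.78% had at least 2 more middle-aged than young libraries with a TSS peak and 0.11% had at least 2 fewer, which no member had.

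**Figure D1:**
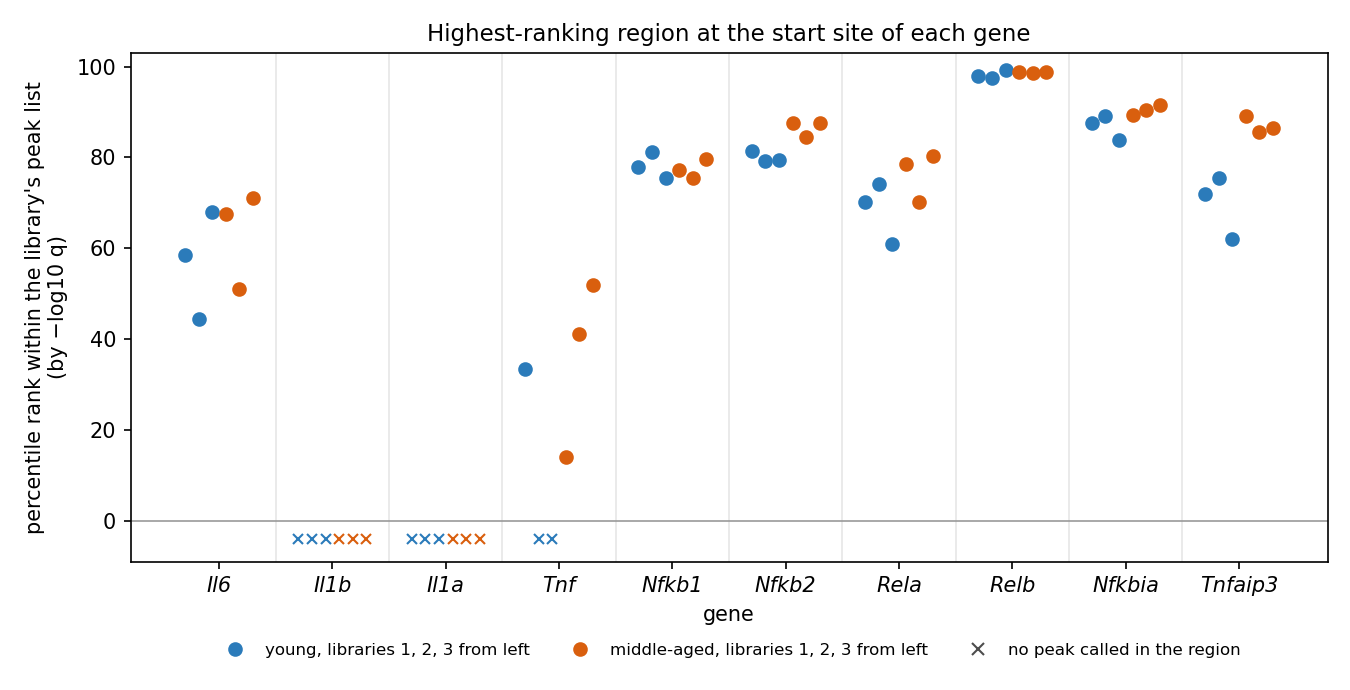
Percentile rank of the highest-ranking TSS region of each gene within the library's own peak list, by −log10 q (100 is the strongest peak), with 1 point per library and a cross where no peak was called. Relb lies above 97 in every library, Il1b and Il1a have crosses in all 6, and for Tnfaip3 the 3 middle-aged points (85.7 to 89.1) lie above the 3 young points (62.1 to 75.4).

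Il6 encodes interleukin-6, a cytokine that signals through gp130. The gene (ENSMUSG00000025746.11, chr5:30013114-30019981, plus strand) had a region at its start in all 6 libraries, chr5:30013114-30013432, which begins at the TSS and runs downstream. Its percentile rank within each list was 58.5, 44.4 and 68.0 in young libraries 1 to 3 and 67.6, 51.1 and 71.1 in middle-aged libraries 1 to 3. The fold enrichment over the local background was 6.74, 6.00 and 9.44 in the young and 8.56, 6.76 and 9.11 in the middle-aged libraries. On both scales the groups overlapped, with young 2 lowest. The mean fold was 7.40 ± 1.81 in the young and 8.14 ± 1.23 in the middle-aged libraries (SD, n = 3; exact permutation test, two-sided p = 0.7).

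A second Il6 region, chr5:30012753-30013035, lies just upstream of the TSS and was called in young 2 and in all 3 middle-aged libraries. The fold was 4.44 in young 2 and 5.59, 4.70 and 6.44 in the middle-aged libraries, so it was weaker than the downstream region in each of the 4. The kB match at −44 shown above lies between the 2 Il6 regions, outside both. No other region was called in the Il6 gene body or the 20 kb upstream.

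Il1b encodes interleukin-1 beta, a secreted cytokine that is released after cleavage by caspase-1. The gene (ENSMUSG00000027398.13, chr2:129364570-129371139, minus strand) had no TSS peak, and its open regions lay upstream. The region at chr2:129373136-129373740 (summit at −2395 bp) had percentile ranks of 73.4, 72.5 and 74.3 in the young and 70.5, 64.1 and 82.5 in the middle-aged libraries. Its fold was 8.33, 9.66 and 10.6 in the young and 8.88, 8.19 and 11.9 in the middle-aged libraries. The young libraries lay inside the range of the middle-aged ones in rank, and the groups overlapped in fold. In each of the 6 libraries this distal Il1b region ranked above the Il6 start.

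Further from Il1b, chr2:129380228-129380563 (summit at −9259 bp) was also called in all 6 libraries. Its percentile rank was 62.2, 36.4 and 38.3 in the young and 55.3, 17.7 and 44.5 in the middle-aged libraries. Both groups spread widely and overlapped, with young 1 highest and middle-aged 2 lowest. Another region, chr2:129380829-129381028, was called in middle-aged 1 only, at rank 6.01.

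Il1a encodes interleukin-1 alpha, which acts on the same receptor as interleukin-1 beta and is active without cleavage. The gene (ENSMUSG00000027399.1, chr2:129299610-129309972, minus strand) likewise had no TSS peak, and a single region at chr2:129320001-129320379 (summit at −10206 bp) was called in all 6 libraries. It ranked near the bottom of every list, at percentile 16.1, 14.9 and 1.81 in the young and 10.9, 11.8 and 9.91 in the middle-aged libraries. The fold was 4.21, 4.44 and 4.16 in the young and 4.24, 4.41 and 4.22 in the middle-aged libraries. The groups overlapped and differed by 0.0199 in mean fold, less than the SD of 0.150 among young libraries.

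Tnf encodes tumour necrosis factor, the cytokine that activates NF-kB through the TNF receptors. At its start (ENSMUSG00000024401.14, chr17:35199381-35202007, minus strand) the region chr17:35201878-35202243 was called in young 1 and in all 3 middle-aged libraries. The percentile rank was 33.4 in young 1, and 14.0, 41.2 and 52.0 in middle-aged libraries 1 to 3. The fold was 4.61 in young 1 and 3.96, 5.19 and 5.60 in the middle-aged libraries. Young 1, where the region was called, lay inside the middle-aged range, and a region missing from a list is only known to have missed the caller's threshold there.

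Inside the gene, an intronic region at chr17:35200444-35200844 (summit at +1353 bp) was called in all 6 libraries. Its percentile rank was 5.39, 34.0 and 37.1 in the young and 24.9, 48.9 and 63.9 in the middle-aged libraries. The groups overlapped, and within each group the libraries spread over more than 30 percentile points. Of the 4 regions upstream of Tnf, none was called in all 6 libraries. The one at chr17:35210122-35210624 (−8373 bp) was called in 2 young and 3 middle-aged libraries, chr17:35218549-35218810 (−16691 bp) in young 1 and 2 only, and chr17:35209807-35210006 (−7942 bp) in middle-aged 3 only. The most distant, chr17:35219569-35219977, overlaps the TSS window of Gm16181, so it is not particular to Tnf. The Tnf locus therefore held 5, 3 and 2 peaks in the young and 3, 4 and 5 in the middle-aged libraries, and each list called a different set.

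**Figure D2:**
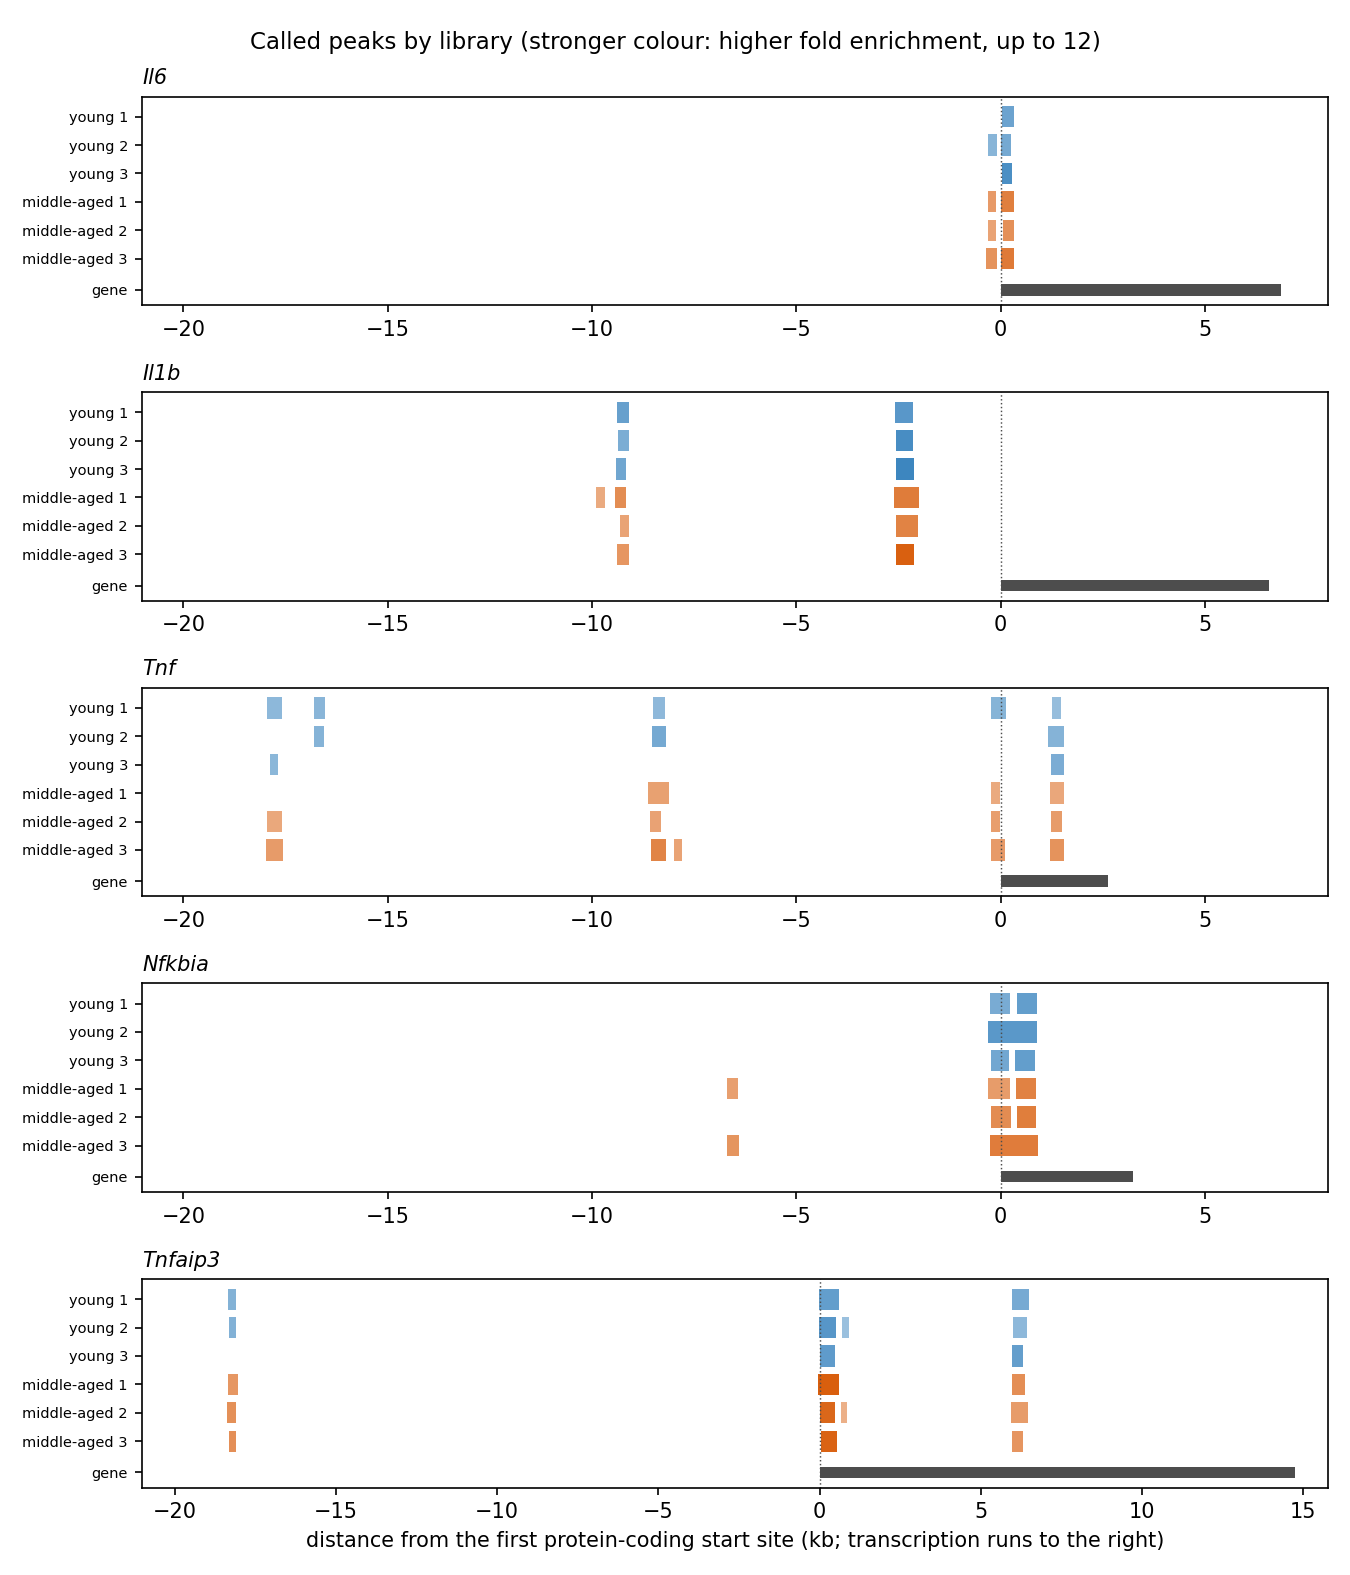
Called peaks (blocks) in each library at Il6, Il1b, Tnf, Nfkbia and Tnfaip3, against distance in kb from the most upstream protein-coding TSS, with blue for young and orange for middle-aged, stronger colour for a higher fold enrichment and the gene as a grey bar. Il1b has peaks only upstream of its start, at the Tnf start blocks are absent from young 2 and 3, and Il6 has a gap between the peaks on either side of its start.

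Among the subunits, Nfkb1 encodes p105, the precursor of p50. It is the longest member (ENSMUSG00000028163.17, chr3:135584655-135691547, minus strand, 106893 bp), and it held 11 of the 35 regions, of which 5 were called in all 6 libraries. The region at its most upstream start, chr3:135690603-135692056, had percentile ranks of 77.9, 81.1 and 75.6 in the young and 77.2, 75.4 and 79.6 in the middle-aged libraries. Its fold was 7.58, 9.16 and 8.49 in the young and 8.28, 8.05 and 8.12 in the middle-aged libraries. The middle-aged values lay within or just below the young range in rank and inside it in fold.

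A second start inside Nfkb1 was also open in every library, at chr3:135608133-135608569. There the percentile rank was 24.9, 64.9 and 54.3 in the young and 63.3, 73.3 and 68.7 in the middle-aged libraries. Young 1 was far below the others and young 2 overlapped the middle-aged libraries. An intronic region at chr3:135602701-135603199 had percentile ranks of 45.6, 58.1 and 55.7 in the young and 58.3, 69.2 and 59.7 in the middle-aged libraries. All 3 middle-aged libraries ranked above the young ones, with young 2 and middle-aged 1 almost level, while in fold the groups overlapped (5.03 to 7.02 in the young and 5.98 to 7.47 in the middle-aged libraries). Ranked only among regions called in every library, the groups overlapped too, with a middle-aged minus young difference of −3.55. An intronic region at chr3:135596874-135597370 and a region upstream at chr3:135699536-135699909 were called in all 6 libraries as well, with percentile ranks from 21.0 to 68.3 and overlapping groups. The remaining 6 Nfkb1 regions were each missing from at least 1 library, and all 6 were missing from young 3. The Nfkb1 locus held 8, 10 and 5 peaks in the young and 10, 10 and 11 in the middle-aged libraries.

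Nfkb2 encodes p100, the precursor of p52 and the substrate of the non-canonical pathway. The gene (ENSMUSG00000025225.15, chr19:46304320-46312385, plus strand) had 2 regions, both at annotated starts and both called in all 6 libraries. At chr19:46304218-46304875 the percentile rank was 81.4, 79.2 and 79.5 in the young and 87.7, 84.6 and 87.6 in the middle-aged libraries. The fold was 7.75, 8 and 9.17 in the young and 10.2, 10.0 and 10.3 in the middle-aged libraries. All 3 middle-aged libraries lay above all 3 young ones on both scales (mean fold 8.31 ± 0.759 and 10.2 ± 0.150, SD, n = 3; two-sided exact permutation p = 0.1, the lowest this design allows). At chr19:46305484-46305819 the percentile rank was 57.9, 54.6 and 39.2 in the young and 58.8, 48.7 and 64.7 in the middle-aged libraries, and the groups overlapped.

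Rela encodes p65, the subunit with a transactivation domain that carries most canonical NF-kB activity. Its region (ENSMUSG00000024927.8, chr19:5637025-5638041 at the start of a gene on the plus strand) had percentile ranks of 70.2, 74.3 and 60.9 in the young and 78.5, 70.1 and 80.4 in the middle-aged libraries. The fold was 7.41, 8.52 and 7.43 in the young and 9.88, 7.55 and 10.2 in the middle-aged libraries. Middle-aged 2 lay among the young libraries on both scales. A weak peak at chr19:5625419-5625618 (−11976 bp) was called in middle-aged 1 only.

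Relb encodes the subunit that pairs with p52 in the non-canonical pathway. Its start (ENSMUSG00000002983.17, chr7:19628386-19629655, gene on the minus strand) was the strongest of all member regions. The percentile rank was 97.9, 97.4 and 99.2 in the young and 98.9, 98.6 and 98.8 in the middle-aged libraries. The fold was 12.4, 13.1 and 14.3 in the young and 15.2, 14.1 and 14.6 in the middle-aged libraries, and young 3 lay above middle-aged 2 on both scales. An intronic region at chr7:19619023-19619372 was called in young 1 and 2 and in middle-aged 2 and 3, at percentile ranks from 14.9 to 54.8.

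Of the inhibitors, Nfkbia encodes IkB alpha, which holds NF-kB in the cytoplasm and is itself induced by NF-kB. Its region at chr12:55491732-55492947 (ENSMUSG00000021025.8, minus strand, TSS at 55492647) had percentile ranks of 87.7, 89.1 and 83.8 in the young and 89.3, 90.3 and 91.5 in the middle-aged libraries. The fold was 7.44, 8.23 and 7.46 in the young and 8.23, 8.70 and 8.83 in the middle-aged libraries. The middle-aged libraries lay above the young ones on both scales, by a margin below 0.01 in fold between young 2 and middle-aged 1. The strongest summit lay inside the gene, at +623 to +662 bp in the 6 libraries. In young 1 and 3 and in middle-aged 1 and 2 a separate, lower peak was called over the start itself, and in young 2 and middle-aged 3 both were called as 1 wide peak. A distal region at chr12:55499049-55499340 (−6567 bp) was called in middle-aged 1 and 3 only, at percentile ranks of 28.2 and 49.8.

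Tnfaip3 encodes A20, a ubiquitin-editing enzyme that shuts off signalling to the IkB kinase. Its start region at chr10:19015065-19015708 (ENSMUSG00000019850.11, minus strand, summit in an untranslated exon) had percentile ranks of 71.9, 75.4 and 62.1 in the young and 89.1, 85.7 and 86.6 in the middle-aged libraries. The fold was 7.44, 8.45 and 7.74 in the young and 12.5, 11.2 and 11.6 in the middle-aged libraries. The pileup at the summit, in extended reads, was 46, 47 and 25 in the young and 77, 64 and 71 in the middle-aged libraries. All 3 middle-aged libraries lay above all 3 young ones on each of these scales, with a mean fold of 7.88 ± 0.521 and 11.7 ± 0.660 (SD, n = 3; two-sided exact permutation p = 0.1, the lowest this design allows). Both kB matches shown above lie within this region.

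Elsewhere at Tnfaip3, an intronic region at chr10:19009173-19009731 was called in all 6 libraries. Its percentile rank was 54.7, 12.2 and 53.7 in the young and 61.8, 41.9 and 53.0 in the middle-aged libraries, and the groups overlapped. The upstream region at chr10:19033701-19034042 (−18239 bp) was called in every library but young 3, at 30.9 and 26.2 in the young and 42.6, 51.1 and 53.9 in the middle-aged libraries. A region at chr10:19014743-19015000 was called only in young 2 and middle-aged 2, at the bottom of both lists (0.471 and 4.49).

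Within-list ranks and fold values rose in the middle-aged libraries over the genome as a whole, by a median of 6.74 percentile points and 0.21 on the log2 scale over the 22403 regions called in all 6 libraries. On fold, the middle-aged group lay wholly above the young in 27.4% of these regions and in 3 of the 17 member regions (Nfkb2, Nfkbia and Tnfaip3). In within-list rank it did so at these 3 and at the Nfkb1 intronic region. The share of all regions on that scale was not counted, so this is not read as a trait of these loci. To remove the part that list length plays, regions called in every library were ranked again among themselves (shared rank, 0 to 100) and compared with limma. On this scale 7 of the 17 member regions had a positive difference (middle-aged minus young) and 10 a negative one, with a median of −1.38, and over all 22403 regions 50.7% were positive with a median of 0.0744. No member region, and 0% of all regions, had a Benjamini-Hochberg adjusted limma p under 0.05, and the smallest adjusted p anywhere was 0.674. At an unadjusted p under 0.05, 1 member region passed, against 7.34% of all regions.

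That region was the Tnfaip3 start. Its shared rank was 55.6, 52.4 and 54.1 in young libraries 1 to 3 and 77.5, 70.2 and 71.1 in middle-aged libraries 1 to 3. Every middle-aged library was higher than every young one, and this was the only member region of which that held, against 6.56% of all regions. The difference was 19.0 percentile points (SE 6.06, 95% interval 5.89 to 32.0), with a limma adjusted p of 0.674 and from 0.191 to 0.933 over 12 alternative settings. The lowest came from summit pileup over background, the scale added after the data were seen. Among the planned settings the lowest limma adjusted p was 0.358, for the rank within the whole list. The sign was the same in all 12 settings, and leaving out each library gave 15.4 to 20.1. The replicate block leaves the difference unchanged by design. With groups that do not overlap, leaving out 1 library could hardly reverse the sign. These settings therefore say little about its stability. After centring each library on the median of all shared regions, the log2 fold difference of the Tnfaip3 start was 0.34, against 0.58 without centring.

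The Nfkb1 region at the most upstream start was the only member region with every young library above every middle-aged one in shared rank, against 6.53% of all regions. The shared rank was 65.0, 63.2 and 70.2 in the young and 53.3, 49.4 and 56.5 in the middle-aged libraries. The difference was −13.0 (SE 6.89, 95% interval −27.9 to 1.82, limma adjusted p = 0.687), and its sign held in all 12 alternatives. Leaving out a library gave values from −8.97 (without young 3) to −14.6. Since these groups did not overlap either, leaving out a library could hardly reverse the sign, and the replicate block left the difference as it was. The sign also held in all 12 alternatives at 3 distal regions of the interleukin-1 genes. These were the Il1b region at −2395 bp (difference −13.6, 95% interval −35.6 to 8.47, limma adjusted p = 0.762), the Il1b region at −9259 bp (−15.9, −34.8 to 2.93, limma adjusted p = 0.691) and the Il1a region (−1.38, −10.3 to 7.54, limma adjusted p = 0.958). Single libraries moved these differences widely. The Il1b region at −2395 bp ranged from −6.29 (without middle-aged 2) and −7.46 (without young 3) to −22.6 (without middle-aged 3), and the Il1b region at −9259 bp from −8.54 (without young 1) to −25.1 (without young 2). The Il1a region ranged from −0.494 (without young 1) to −3.996 (without young 3). At the other 12 member regions the sign changed under at least 1 alternative, so no direction in shared rank is read from their differences. Among them were Il6, Rela, Relb, Nfkbia and both Nfkb2 regions. Nfkbia and the Nfkb2 region at chr19:46304218-46304875, where the middle-aged libraries lay above the young in fold, overlapped in shared rank. Their differences were 0.0863 and 3.69 (limma adjusted p = 0.997 and 0.894).

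**Figure D3:**
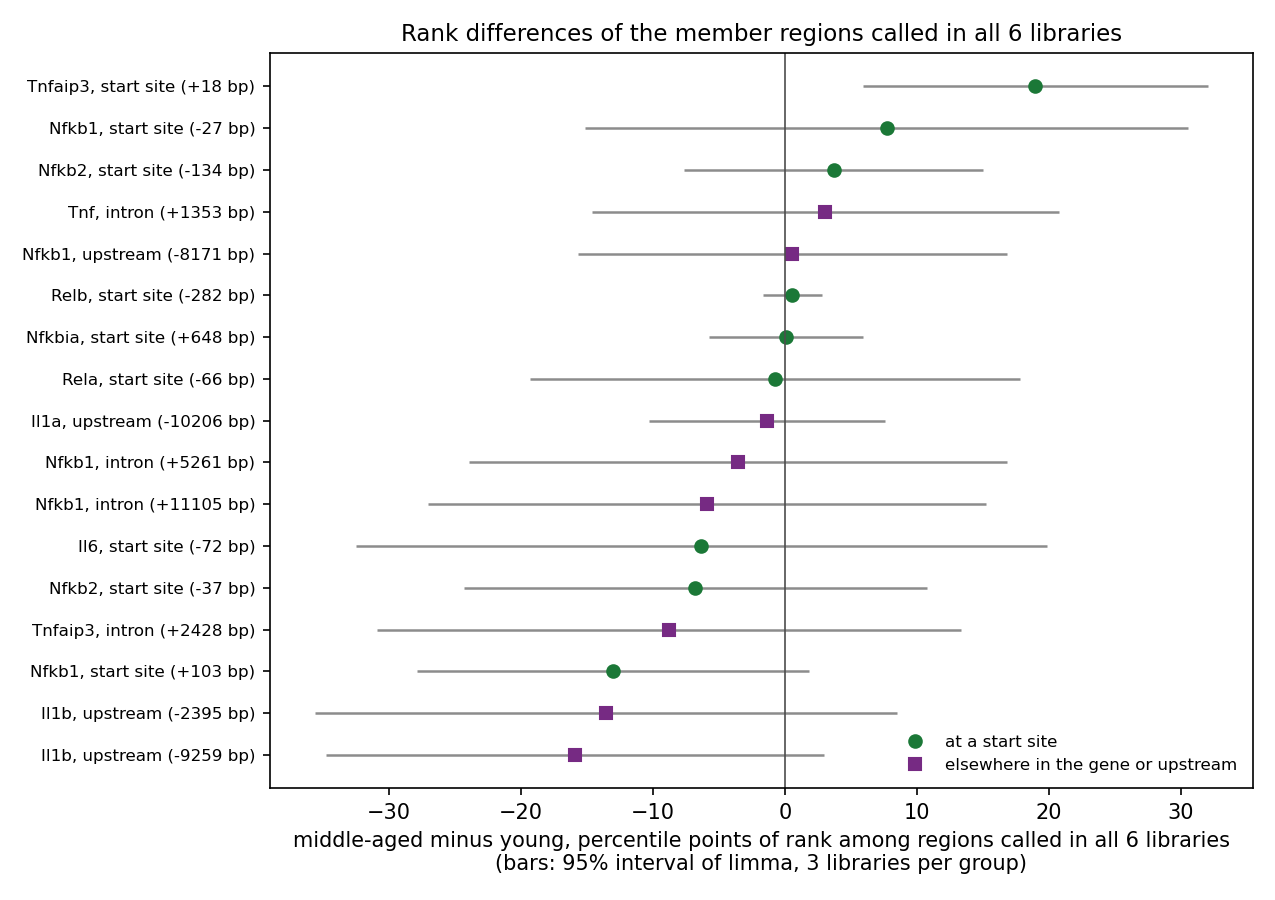
Difference in shared rank (middle-aged minus young, percentile points) for the 17 member regions called in all 6 libraries, with 95% limma intervals, green circles for regions at a TSS and purple squares for others, and in brackets the distance of the median summit to the nearest protein-coding TSS. The Tnfaip3 start, at 19.0, is the only region whose interval lies wholly on one side of 0.

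Taken by presence, 17 of the 35 member regions were called in all 6 libraries, against 35.1% of all regions, and 5 in a single library, against 23.0%. Of these 5, 3 were called in middle-aged 1 (at Il1b, Nfkb1 and Rela) and 2 in middle-aged 3 (at Tnf and Nfkb1). No member region was called in all 3 middle-aged and no young libraries (2.21% of all regions), and none in all 3 young and no middle-aged libraries (0.036%). By position, 9 of 13 regions at a TSS, 4 of 10 elsewhere in a gene and 4 of 12 upstream were present in every library. The shares of all regions by position were not counted, so this order is not read as a trait of these loci. At 4 regions, of Tnf, Nfkb1 (2 regions) and Tnfaip3, only young 3 lacked the call, and 8.60% of all regions were likewise called in every library but that one.

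Counted together, the member loci held 27, 28 and 19 peaks in young libraries 1 to 3 and 30, 30 and 31 in middle-aged libraries 1 to 3. The middle-aged libraries were all higher (24.7 ± 4.93 and 30.3 ± 0.577, SD, n = 3; ratio 1.23; two-sided exact permutation p = 0.1, the lowest this design allows). The whole lists differed by a ratio of 1.32. Per 10000 peaks of each list, the member loci held 7.51, 6.37 and 6.88 peaks in the young and 6.47, 6.42 and 6.41 in the middle-aged libraries, which overlapped (ratio 0.930; exact permutation test, two-sided p = 0.4).

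The other genes of the pathway were counted in 4 lists of 71 genes in all. The 24 genes of the IkB kinase complex and of the kinases and adaptors above it had a TSS peak in all 6 libraries without exception. Of 13 other NF-kB subunits and inhibitors, 12, 11 and 9 had a TSS peak in the young and 12, 12 and 12 in the middle-aged libraries. Of 13 cytokine receptors the numbers were 10, 10 and 9 in the young and 10, 10 and 10 in the middle-aged libraries. The IkB kinase list was thus complete in both age groups and the other 2 lists were not, with Traf1, Il1r2, Il18r1 and Il1rl1 at 0 libraries.

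Of 21 other inflammatory cytokines and NF-kB target genes, 9, 11 and 8 had a TSS peak in the young and 12, 10 and 13 in the middle-aged libraries. Il33, Csf2, Csf3, Lta, Ltb, Il12a, Nos2 and Vcam1 had none in any library. Over all 71 genes the counts were 55, 56 and 50 in the young and 58, 56 and 59 in the middle-aged libraries, with young 2 equal to middle-aged 2 (53.7 ± 3.21 and 57.7 ± 1.53, SD, n = 3; exact permutation test, two-sided p = 0.2). Without young 3, the difference of 4 genes became 2.17. In all 6 libraries 50 of the 71 (70.4%) were called at a TSS, against 48.4% of all genes. A difference of at least 2 libraries was found for 3 of the 71 genes, each with more middle-aged libraries, against 2.78% of all genes. Nfkbid, an inhibitor of the IkB family, had a TSS peak in 1 young and 3 middle-aged libraries, and Il11 and Lif, cytokines that signal through gp130 like interleukin-6, in 0 young and 2 middle-aged libraries each. The merged Il11 region was also called in young 1 and 2 (fold 4.42 and 4.25, against 5.33 and 3.91 in middle-aged 1 and 2), but those young peaks did not reach the 1 kb window, so the Il11 count rests on the edges of peaks. In the limma comparison, 0 of the 50 pathway genes with a TSS region in every library had an adjusted p under 0.05. At an unadjusted p under 0.05 there were 4 of 50, a share near the 7.34% of all regions. All 4 were higher in the middle-aged libraries: Tnip2, which encodes a partner of A20, the adaptors Traf2 and Traf3, and Sharpin, a subunit of the linear ubiquitin ligase. These 4 were named after their values were seen.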

How the data were processed

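ATAC-seq libraries of 3 young and 3 middle-aged SSPC cultures were analysed from the peak lists the authors deposited, 1 list per library. According to the study's methods, reads were aligned to mm10 with Bowtie2, duplicates were removed with Sambamba and peaks were called with MACS. Base calls were converted with bcl2fastq, per the submitters' processing notes. The caller's settings and any shift of reads for the transposase are not given in the sources used here. The study's differential test needs reads and was not repeated.

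Each deposited peak carries a score, a fold enrichment, and the −log10 of a p-value and of a q-value. The score is 10 times the −log10 q, cut to a whole number. Fold enrichment is a linear ratio of summit pileup to local background, with 1 added to each. The added 1 weighs more where the background is low. The −log10 q depends on depth, so the text ranks peaks within a list. The pileup was solved from the deposited fold and −log10 p and came out whole for 100% of peaks. Depth in reads is unknown, and only background and list length could be given. They did not order the libraries alike: young 1 had a background of 3.75 and 35953 peaks, and middle-aged 2 had 2.40 and 46745. The paper reports a global rise in accessibility in middle-aged SSPCs. From the lists, such a rise and a difference in depth cannot be told apart. A change common to all regions does not appear in the shared rank.

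TSSs (54361 of 21853 protein-coding genes) came from GENCODE for mm10. Peaks overlapping by at least 1 bp were merged. Groups came from sample titles. Counts per library were tested by exact permutation (two-sided), enumerating all 20 ways to split 6 libraries. The shared rank was fitted across all 22403 regions with limma 3.58.1 (lmFit, eBayes with trend) in R 4.3.3, with Benjamini-Hochberg adjustment and a threshold of 0.05, and the code was tested on simulated data. Alternatives were another TSS window (500 or 2000 bp), 10 or 50 kb upstream, a −log10 q of at least 5, equally long lists of 27628 peaks, other scales, regions called in at least 4 libraries, a replicate block and leaving out each library. The scale of summit pileup over background was added after the data were seen.

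The genes were given by name, and genes, lists and rules were chosen with earlier results of these data known. Described for each gene were the highest-ranking TSS region, the regions called in all 6 libraries and any region past the threshold or called in a single age group; other regions of a locus were added after their values were seen. Pathway genes were named where their number of libraries differed by 2 or more. Same-numbered libraries did not deviate together (correlations of 0.00105, 0.0156 and −0.0248 over the 22403 regions), so the numbers were not used as pairs.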

Additional observations from a re-analysis of the deposited data

How the results depend on the processing

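The differences in counts per library kept their direction under every alternative run. Of the 17 shared member regions, 5 kept the sign of their difference in rank and 12 did not. Those 5 were singled out by that same criterion, so their unchanged sign is not a separate check. Dividing the locus peaks by list length was not among these alternatives, and it gave the opposite direction (ratio 0.930). The permutation tests of the counts could not pass 0.05 under any setting, so they say nothing about stability. The 0 member regions past a limma adjusted p of 0.05 stayed 0 in all 12, where 0 to 2 had an unadjusted p under 0.05 and the whole table had 0 to 3 calls. Of the regions called in a single age group, 0 for either group, the middle-aged count became 2 with 50 kb upstream and 0 to 2 when a library was left out (1 without young 1, 2 without young 2 and 1 without middle-aged 2), and the young count became 0 to 1 (1 without young 3). With the replicate block, the difference in member genes with a TSS peak was 0.667 (exact sign permutation, p = 0.5), the ratio of locus peaks 1.27 (p = 0.25, the smallest possible), and the difference in pathway genes 4 (p = 0.5). In limma, the block left 0 member regions called. Leaving out each library gave ratios of locus peaks from 1.10 (without young 3) to 1.32 (without young 2), and differences in pathway genes from 2.17 (without young 3) to 5.17 (without young 2). Lists of equal length gave a ratio of 1.15 and a difference of 1.33 pathway genes. These data have 3 libraries per group, peak lists without reads, and 17 of 35 member regions not called in young 3, where the background was lowest. The young 3 list held 27628 peaks, so at most that many of all 63840 regions could be called there. A region absent from a list is not shown to be closed.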

Other observations

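The base composition of the start sites was not used to choose the genes. The ratio of observed to expected CpG dinucleotides in the RefSeq promoter windows at the most upstream start of each gene was lowest for the 4 cytokines, at 0.202 for Il1b, 0.214 for Il6, 0.334 for Il1a and 0.436 for Tnf. It was 0.539 for Nfkbia, 0.778 for Nfkb2, 0.813 for Rela and 0.914 for Tnfaip3. The order does not hold for every start, since a downstream start of Tnfaip3 had 0.367, below Tnf, and those of Nfkb2 had 0.588 and 0.733. In the lowest tertile of all promoters by this ratio, 11.9% of 5505 genes had a TSS peak in all 6 libraries, against 56.8% in the middle tertile and 84.1% in the highest. Il1b and Il1a, with no TSS peak, and Il6, with one in every library, all lie in the lowest tertile, and Tnf, with one in 4 libraries, in the middle tertile.

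Peaks of the member loci spanned 200 to 1261 bp (median 334), with a fold from 2.96 to 15.2 and a summit pileup from 10 to 218 extended reads (median 25), over 165 peaks. The regions in middle-aged 1 alone, at Il1b, Nfkb1 and Rela, each had a summit pileup of 13 extended reads. At the genome-wide background of that library, this pileup gives their shared fold of 3.95.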
